A study of Homo sapiens with 9 samples.

Results

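The clustered histone genes were examined in DLD1 cells, a human colorectal cancer line, after depletion of Lamin A/C or Lamin B2. Members were chosen by gene name alone, as every array probe whose name starts with HIST1H, HIST2H, HIST3H or HIST4H. This gave 96 probes of 68 genes, out of 50238 probes with 31033 gene names. By histone type they comprised 6 probes for H1, 25 for H2A, 31 for H2B, 17 for H3 and 17 for H4. The 9 arrays, of Agilent's single-color kind, comprised 3 from untreated DLD1 cultures that received no siRNA, 3 from cultures given siRNA against Lamin A/C (Lamin A/C Kd) and 3 from cultures given siRNA against Lamin B2 (Lamin B2 Kd). The siRNA was applied at 100 nM and RNA was taken at 48 h, and no control siRNA was put on an array. Transfection and depletion therefore cannot be told apart against the controls, while the knockdowns share the transfection when compared with each other. All groups are cultures of the same line, with 3 biological replicates each, and 1 array per culture. In such bulk RNA, fewer cells making a transcript and less transcript per cell cannot be told apart.

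The histones H2A, H2B, H3 and H4 form the nucleosome core around which DNA is wrapped, and H1 binds the linker DNA between nucleosomes. Most of their genes lie in clusters, lack introns and are transcribed mainly in S phase, when new DNA needs new nucleosomes. Their mRNAs normally end in a conserved stem-loop in place of a poly(A) tail, and the stem-loop is bound by SLBP. A few, HIST1H1C, HIST1H2AC, HIST1H2BC, HIST1H2BD, HIST1H2BK and HIST2H2BE, are also known to give polyadenylated transcripts. How far the labeling of the RNA took up transcripts without a poly(A) tail was not tested. A change in signal is therefore not assigned to either kind of transcript end. All 68 genes were found in a RefSeq table of GRCh38.p14, where 67 are protein coding and HIST2H2BA is a pseudogene. Of these, 55 lie in the large cluster on chromosome 6, 12 on chromosome 1 and HIST4H4 on chromosome 12.

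Each probe is a 60-base sequence, and the probes of a histone type are often alike, because the coding sequences of the type are. Likeness was counted as the bases matched at the best ungapped placement of 2 probes. Of the 96 probes, 39 matched a probe of another histone gene at 40 or more of 60 bases, among them 15 of the 31 for H2B, 13 of the 17 for H3, 5 of the 25 for H2A, 6 of the 17 for H4 and 0 for H1. Such probes could take signal from each other's transcripts, so they are not treated as separate measurements. Whether they did was not tested. The 2 closest pairs among H2B probes, and a less close pair from HIST1H2BM and HIST1H2BI, which both rose in Lamin A/C Kd, are given here as 5′ to 3′ sequences of the array design, with the bases that differ within each pair in capitals. HIST1H2BE and HIST1H2BF differ at 4 of 60 bases, HIST1H2BN and HIST2H2BE at 2 of the 56 that overlap, and HIST1H2BM and HIST1H2BI at 9 of the 50 that overlap.
HIST1H2BE: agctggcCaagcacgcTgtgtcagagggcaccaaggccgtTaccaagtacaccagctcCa
HIST1H2BF: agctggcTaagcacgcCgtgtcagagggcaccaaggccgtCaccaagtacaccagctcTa
HIST1H2BN: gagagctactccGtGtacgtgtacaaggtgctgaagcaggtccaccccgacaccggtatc
HIST2H2BE: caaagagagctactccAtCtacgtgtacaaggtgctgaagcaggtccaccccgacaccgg
HIST1H2BM: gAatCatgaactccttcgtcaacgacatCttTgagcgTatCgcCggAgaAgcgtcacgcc
HIST1H2BI: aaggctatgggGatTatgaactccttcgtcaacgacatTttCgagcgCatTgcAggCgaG

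A second probe for HIST1H2BD and one for HIST3H2BB were designed on the strand opposite to the H2B mRNAs. Their sequences matched the RefSeq mRNA probes of H2B at no more than 26 and 27 bases, but matched the reverse complement of the HIST1H2BJ probe at 47 and 38 bases. Both are shown as reverse complements under the HIST1H2BJ probe, because their values lay apart from those of most H2B probes. In the HIST1H2BJ line the capitals mark bases that differ from HIST1H2BD, and in the other lines bases that differ from HIST1H2BJ.
HIST1H2BJ: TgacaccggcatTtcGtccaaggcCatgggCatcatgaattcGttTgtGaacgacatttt
HIST1H2BD reverse complement: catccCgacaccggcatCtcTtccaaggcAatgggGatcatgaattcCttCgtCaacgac
HIST3H2BB reverse complement: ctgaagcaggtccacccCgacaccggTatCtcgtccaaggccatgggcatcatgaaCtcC

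Probes for HIST1H2BK and for HIST1H2AC, whose values differed most between the knockdowns, had little likeness to any other histone probe, with at most 27 and 29 bases matched on the same strand. The middle 30 bases of each are shown in lower case, with no base marked.
HIST1H2BK: tctaataatcatttactgttcctcaaagaa
HIST1H2AC: attatattttatgtaacctgtccactgttg

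The transcript end was read by 6 probes that hold the histone stem-loop, searched on the probe strand as a 6-base stem that starts with GG, a loop of 4 bases that starts with TTT, and the reverse complement of the stem. The search found it in 8 of all 50238 probes (0.0159%), against 6.25% of the histone probes. The stretches are shown for the 5 genes with the stem and loop in capitals, because these probes reach the stem-loop itself. HIST2H2AA3 has 2 such probes, one of which is shown.
HIST1H2AI: caaaGGCTCTTTTCAGAGCCacct
HIST2H2AA3: aaaaGGCTCTTTTCAGAGCCaccc
HIST2H3C: aaaaGGCTCTTTTCAGAGCCacc
HIST1H4K: aaaaGGCCCTTTTTAGGGCCcc
HIST2H4A: caaaGGCCCTTTTTAGGGCCgacc

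A signal is given as the log2 intensity minus the median of its array, so 0 is the middle of all probes and a step of 1 is a factor of 2. It compares arrays for 1 probe and never 1 probe with another. Of the histone probes, 76 were well above background on all 9 arrays, 9 on some and 11 on none. The genes without a probe above background on any array were HIST1H1T, a testis H1, HIST1H4G and the pseudogene HIST2H2BA. In each comparison 77 histone probes were tested, 4 for H1, 22 for H2A, 20 for H2B, 16 for H3 and 15 for H4. The tested HIST1H2BH probe lacks Lamin A/C Kd replicate 1, where its spot was an outlier.

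The knockdowns were checked first. Both LMNA probes fell in Lamin A/C Kd, by 3.83 and 3.80 on the log2 scale, with limma adjusted p = 0.00023 and 0.00031. The LMNB2 probe fell by 2.32 in Lamin B2 Kd, with adjusted p = 0.00052. Per array, the median intensity ranged from 63.0 to 82.6, and the share of spots detected over background from 65.6 to 74.1%. The Lamin B2 Kd replicate 3 array is on another slide than the other 8. All 12 probes of the colon epithelium markers were tested, and 1 of them, for VIL1, fell in Lamin B2 Kd, by 1.06 (adjusted p = 0.034). Of the 9 fibroblast probes 1, for PDGFRB, was tested, and only in comparisons with Lamin A/C Kd. The PDGFRB probe passed detection on all Lamin A/C Kd arrays but not on all 3 controls. Set against those controls, its signal in the knockdown was 1.52 higher (limma adjusted p = 0.011). The size of this difference is uncertain, because the control signal did not pass detection throughout. Probes for COL1A1, COL1A2 and COL3A1 were not tested for want of signal. In addition 3 of 5 blood probes and 3 of 6 endothelium probes were tested, and 0 of these passed an adjusted p under 0.05 against the controls. The part of PDGFRB or VIL1 signal in the histone values was not tested.

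In Lamin A/C Kd against control, most H2B probes lay above 0 together. Of the 20 tested, 17 did so, with a median log2 change of 0.46, a fold of 1.38. Of the 18 on the mRNA strand, 17 lay above 0, with a median of 0.48 and a range from -0.20 to 1.07. The 2 probes on the other strand lay at -0.53 and -0.71. At an adjusted p under 0.05, 9 H2B probes rose and 0 fell, and 17 of 20 had an unadjusted p under 0.05, where 24.1% of all probes did in either direction. Of these 17, 16 were mRNA-strand probes above 0 and 1 was the opposite-strand HIST3H2BB probe, which lay below 0. All 13 H2B probes on the mRNA strand that are alike to another gene's probe lay between 0.40 and 0.66, while the 5 that reach no such likeness on their own strand lay between -0.20 and 1.07.

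Over all 77 histone probes, 11 rose and 1 fell at an adjusted p under 0.05, where 3% and 6.15% of all 33131 probes tested did. Under the call used for the arrays, a fold of 2 or more with an unadjusted p under 0.05, 1 histone probe was called higher and 0 lower, against 0.89% and 1.42% of all probes. The 3 Lamin A/C Kd arrays lay above all 3 controls for 30 histone probes and below them for 11, against 15.2% and 25.8% of all probes, and 15 of the 30 were H2B probes. The median change over the histone probes was 0.08, against -0.05 over all probes tested. The change of each tested probe by type is plotted for both knockdowns.

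**Figure D1:**
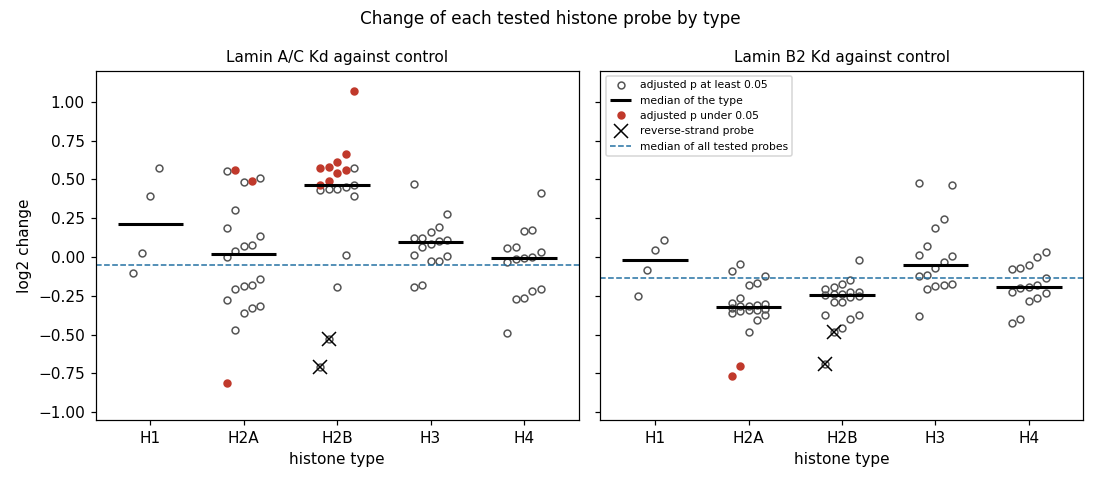
Log2 change of each tested histone probe (vertical axis) by histone type (horizontal axis), in Lamin A/C Kd (left) and Lamin B2 Kd (right). Filled points have an adjusted p under 0.05, crosses mark the 2 H2B probes on the opposite strand, bars are the median of the type, and the dashed line is the median of all tested probes. In Lamin A/C Kd, 17 of 20 H2B points lie above 0 and 9 are filled, and in Lamin B2 Kd all 20 lie below 0.

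HIST1H2BK, which encodes an H2B protein from both kinds of transcript end, had the largest rise. Its signal was 5.81, 4.82 and 6.01 in the controls, 6.46, 6.60 and 6.80 in Lamin A/C Kd, and 5.66, 5.52 and 5.40 in Lamin B2 Kd. All 3 Lamin A/C Kd arrays were above all others, and Control replicate 2 was the lowest of the 9. The change was 1.07 ± 0.27 (SE, n = 3 against 3), with a limma adjusted p = 0.042. It dropped to 0.71 when Control replicate 2 was left out and to 0.98 when replicate 3 of Lamin A/C Kd was, both short of a fold of 2.

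HIST1H2BI, one of the near-identical core H2B genes, read 4.33, 4.47 and 4.48 in the controls, 4.91, 5.11 and 5.10 in Lamin A/C Kd and 4.29, 4.24 and 3.97 in Lamin B2 Kd. The groups did not overlap in this order, and the rise in Lamin A/C Kd was 0.61 ± 0.13 (SE) with an adjusted p of 0.019. HIST1H2BG gave 2.40, 2.46 and 2.46 in the controls, 2.88, 2.99 and 3.13 in Lamin A/C Kd and 2.31, 2.27 and 2.16 in Lamin B2 Kd. It too separated the groups, with a rise of 0.56 ± 0.11 and an adjusted p of 0.017. HIST1H2BL, a further core H2B gene, read 5.88, 6.11 and 6.14 in the controls, 6.58, 6.56 and 6.74 in Lamin A/C Kd and 6.04, 5.81 and 5.54 in Lamin B2 Kd.

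The other H2B rises were HIST1H2BH (0.66), HIST1H2BM (0.58), HIST1H2BL (0.58), the mRNA-strand probe of HIST3H2BB (0.54), HIST1H2BO (0.49) and HIST1H2BB (0.47), with adjusted p between 0.031 and 0.048. HIST1H2BC, HIST1H2BD and HIST2H2BE, which also give polyadenylated transcripts, lay at 0.45, 0.44 and 0.43 by their mRNA-strand probes that match other H2B probes, with all Lamin A/C Kd arrays above all controls and adjusted p of 0.075, 0.10 and 0.094. The 3 mRNA-strand H2B probes furthest from the rest were HIST1H2BK at 1.07, HIST1H2BJ at 0.01 and the second HIST2H2BE probe at -0.20. On its own strand each of them matched a probe of another histone gene at fewer than 40 bases, but the HIST1H2BJ probe matched the reverse complement of the opposite-strand HIST1H2BD probe at 47. HIST1H2BJ, shown above beside the opposite-strand probes, read 2.62, 2.92 and 2.83 in the controls and 2.87, 2.66 and 2.87 in Lamin A/C Kd, and these overlap.

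**Figure D2:**
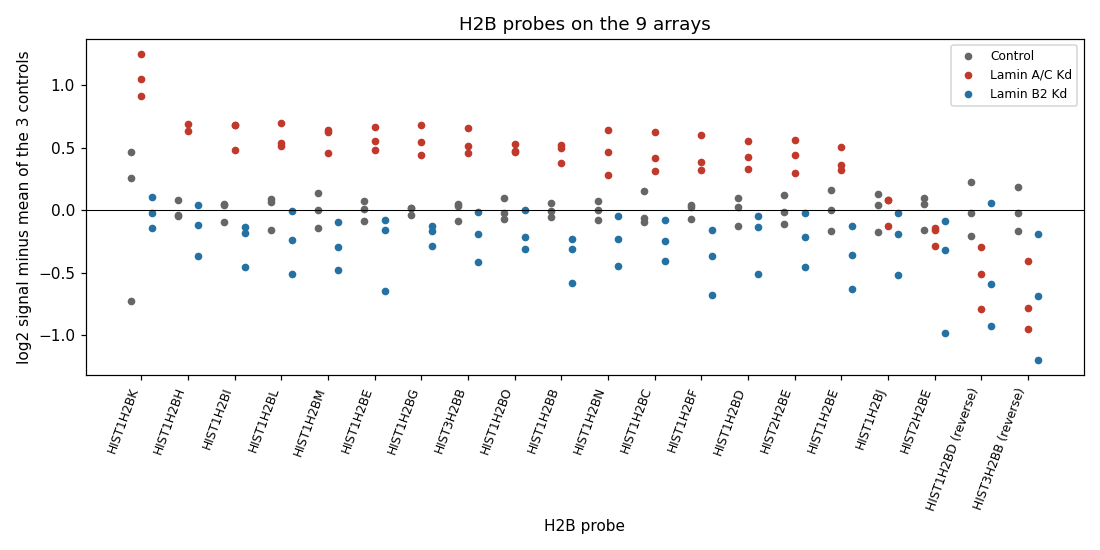
Signal of the 20 tested H2B probes on each array, as log2 signal minus the mean of the 3 controls (vertical axis), ordered by their change in Lamin A/C Kd; each point is 1 array, colored by group, and the 2 probes marked reverse are on the opposite strand. All Lamin A/C Kd points of the first 16 probes lie above the control mean, 1 control of HIST1H2BK lies far below the other 2, and the reverse probes have all Lamin A/C Kd points below 0.

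The opposite-strand probes lay below 0 in both knockdowns. The HIST3H2BB probe read 4.55, 4.33 and 4.19 in the controls, 3.95, 3.57 and 3.41 in Lamin A/C Kd and 4.17, 3.67 and 3.16 in Lamin B2 Kd. Its change was -0.71 (limma adjusted p = 0.11) in Lamin A/C Kd, and all those arrays were below all controls. The mRNA-strand probe of the same gene read 4.34, 4.48 and 4.46 in the controls and 4.89, 4.94 and 5.09 in Lamin A/C Kd, all above the controls. For HIST1H2BD, the opposite-strand probe had a change of -0.53 (adjusted p = 0.23) and the mRNA-strand probe one of 0.44 (adjusted p = 0.10). Of the 14 histone genes with more than 1 tested probe, 6 had changes of both signs in Lamin A/C Kd, and these 2 were the furthest apart, at 1.25 and 0.97.

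The number of H2B probes past the adjusted threshold depended on single arrays, although the direction did not. It was 0 when replicate 1 or 2 of the controls or replicate 2 or 3 of Lamin A/C Kd was left out, 1 without Control replicate 3, 2 without the first Lamin A/C Kd array, and 16 without Lamin B2 Kd replicate 3, whose array enters the shared estimate of the spread. In these fits 16 or 17 of the 20 were above 0 and the median lay between 0.41 and 0.51.

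H2A probes lay on both sides in Lamin A/C Kd, with 11 above 0 and 11 below and a median of 0.02, and 2 rose and 1 fell at an adjusted p under 0.05. HIST2H2AA3, a core H2A gene, had all 3 probes above the controls on every Lamin A/C Kd array, at 0.51, 0.55 and 0.56. Its stem-loop probe shown above read 6.11, 6.03 and 6.24 in the controls, 6.70, 6.66 and 6.70 in Lamin A/C Kd and 5.95, 5.88 and 5.54 in Lamin B2 Kd, with an adjusted p of 0.034 for the rise. The stem-loop probe of HIST1H2AI, another core H2A gene, read 0.79, 0.60 and 0.46 in the controls, -0.35, -0.09 and -0.13 in Lamin A/C Kd, and 0.15, -0.12 and -0.29 in Lamin B2 Kd. It fell by 0.81 ± 0.15 (SE, adjusted p = 0.013) in Lamin A/C Kd, and no knockdown array reached a control. Of the 6 stem-loop probes, 4 lay above 0 and 2 below in Lamin A/C Kd, with a median of 0.09. HIST1H2AB and HIST1H2AD, both core H2A genes, lay at -0.47 (adjusted p = 0.061) and 0.48 (adjusted p = 0.057), each with all 3 arrays outside the control range. HIST1H2AH, HIST1H2AJ and HIST2H2AC lay at -0.28, -0.33 and -0.00. The 5 H2A probes that are alike to another gene's probe lay between -0.47 and 0.48. Among these, the HIST1H2AD and HIST1H2AK probes match at 53 bases and lay at 0.48 and -0.18.

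HIST1H2AC, an H2A gene with both kinds of transcript end, was the histone probe whose 2 knockdowns lay furthest apart. The probe shown above read 2.10, 2.16 and 2.18 in the controls, 2.53, 2.58 and 2.80 in Lamin A/C Kd and 1.5, 1.29 and 1.36 in Lamin B2 Kd. The 3 groups did not overlap, being highest in Lamin A/C Kd and lowest in Lamin B2 Kd. It rose by 0.49 ± 0.12 (SE, adjusted p = 0.034) in Lamin A/C Kd and fell by 0.76 ± 0.12 (SE, adjusted p = 0.015) in Lamin B2 Kd. The second HIST1H2AC probe lay at -0.14 and -0.32, with adjusted p of 0.77 and 0.39, so the signs of its probes differ in Lamin A/C Kd.

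For the other types 0 probes passed an adjusted p under 0.05 in Lamin A/C Kd. H3 had 12 of 16 probes above 0 with a median of 0.09, H4 had 6 of 15 with a median of -0.01, and in both 0 probes had an unadjusted p under 0.05. HIST3H3, a testis H3 gene and the one tested member of that list of 4, read 9.23, 9.21 and 9.32 in the controls and 9.47, 9.32 and 9.45 in Lamin A/C Kd, at 0.16 (adjusted p = 0.46), and its probe shares 47 of 60 bases with one for HIST1H3B. HIST2H3A and HIST1H3C lay at 0.12 and 0.28. Among H4 genes, HIST1H4E lay at -0.49, HIST1H4D and HIST1H4L at -0.27, HIST1H4B at -0.22 and HIST1H4C at -0.21. Of 4 linker histone probes 3 lay above 0, led by HIST1H1C, which read 7.50, 7.51 and 7.60 in the controls and 8.11, 8.09 and 8.13 in Lamin A/C Kd. Its change of 0.57 ± 0.18 had a limma adjusted p of 0.081, with no overlap of the arrays, and HIST1H1E and HIST1H1D lay at 0.39 and -0.10.

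**Figure D3:**
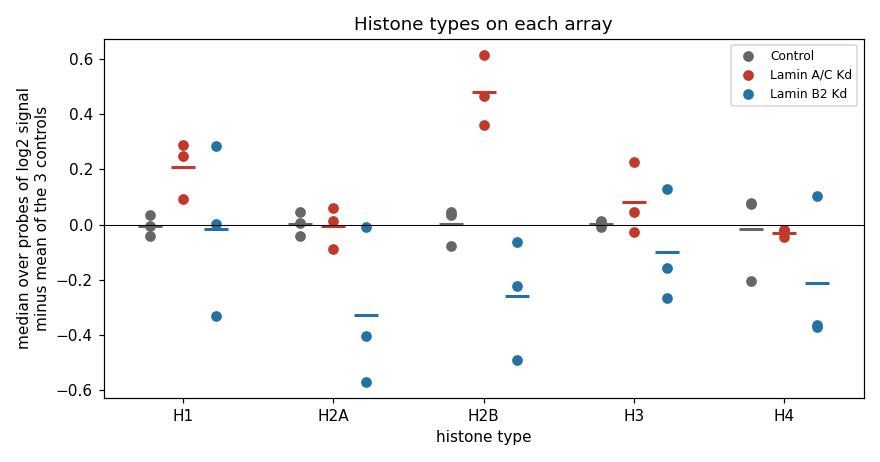
Median over the tested probes of each histone type of log2 signal minus the mean of the 3 controls (vertical axis), by type (horizontal axis). Each point is 1 array and each bar the mean of its group. H2B medians in Lamin A/C Kd are 0.36, 0.46 and 0.61, and Lamin B2 Kd replicate 1 lies nearest to the controls for H2A, H2B and H4 among the Lamin B2 Kd arrays, at -0.01, -0.06 and 0.10.

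In Lamin B2 Kd against control most histone probes lay below 0, and none reached the call of a fold of 2. Of the 77, 10 lay above 0 and 67 below, with a median of -0.23, where the median of all tested probes was itself -0.14. At a fold of 2 with an unadjusted p under 0.05, 0 were called higher and 0 lower, against 0.787% and 1.19% of the 33535 probes. An unadjusted p under 0.05 at any fold was found for 12 of the 77, or 15.6%, below the 23.7% of all probes. At an adjusted p under 0.05, 0 rose and 2 fell, against 0.465% and 3.65% of all probes. Non-overlapping groups were found for 0 probes in the higher and 12 in the lower direction, against 5.81% and 26%. The share that was lower without overlap was below that of all probes. The 22 H2A probes lay between -0.76 and -0.04 with a median of -0.32, and the 20 H2B probes between -0.69 and -0.02 with a median of -0.25. The medians of H4, H3 and H1 were -0.19, -0.05 and -0.02.

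The 2 probes that fell were the HIST1H2AC probe described above, and HIST1H2AI, by 0.70 ± 0.15 (SE, adjusted p = 0.041). HIST1H2AB lay at -0.48, HIST1H2BD at -0.48 by its opposite-strand probe, HIST1H4C at -0.42, HIST1H2AH at -0.41, HIST1H2BF at -0.40 and HIST4H4 at -0.40. Above 0 lay mostly H3 genes, namely HIST1H3I at 0.48, HIST1H3J at 0.47, HIST1H3E at 0.25, HIST1H3A at 0.19 and HIST1H3D at 0.07, with HIST1H1E at 0.11, HIST1H1B at 0.04 and HIST3H3 at 0.01. Apart from HIST1H2AC and HIST1H2AI, the genes named for Lamin B2 Kd had an adjusted p from 0.078 to 0.95. The values of HIST1H3I, HIST1H3J and HIST1H3E rest on a single array. HIST1H3I read 2.33, 2.52 and 3.60 in Lamin B2 Kd against 2.23, 2.41 and 2.39 in the controls, HIST1H3J 2.85, 2.54 and 4.02 against 2.66, 2.70 and 2.66, and HIST1H3E 5.45, 5.33 and 6.12 against 5.39, 5.35 and 5.42. The high value of all 3 is Lamin B2 Kd replicate 3, the array on its own slide, and without it their changes were 0.085, 0.024 and 0.0051.

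The median in Lamin B2 Kd depended on the arrays and the scaling. With each array shifted by its 75th percentile, the median over all probes moved from -0.14 to 0.058 for Lamin B2 Kd and from -0.05 to 0.025 for Lamin A/C Kd. The histone probes then stood at 34 above and 43 below 0 for Lamin B2 Kd, and at 56 above and 21 below for Lamin A/C Kd in place of 49 and 28. Relative to all probes, their median under both scalings was -0.09 for Lamin B2 Kd and 0.13 for Lamin A/C Kd. Each scaling moves all probes of an array by the same amount, so this relative median could not differ between them. For Lamin B2 Kd it was -0.03 with quantile normalization, -0.10 with normexp and -0.15 with no filter on detection. For Lamin A/C Kd these values were 0.15, 0.07 and 0.07. Under the main scaling, the histone median without Lamin B2 Kd replicate 1 was -0.34, against -0.17 over all probes. Without replicate 3, which has its own slide, it was -0.13, against -0.06 over all probes.

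When the knockdowns, both of them transfected, were compared directly, Lamin A/C Kd had 23 histone probes higher and 0 lower at an adjusted p under 0.05, against 10.6% and 4.95% of the 33134 probes tested. Of the 20 H2B probes 16 were among the 23, with 6 for H2A and HIST1H1C for H1. At a fold of 2 with an unadjusted p under 0.05, 2 were called higher and 0 lower, against 2.59% and 1.48%. The groups did not overlap for 25 probes in the higher direction, against 21% of all probes, and 15 of these were H2B probes. All 18 mRNA-strand H2B probes lay above 0, between 0.25 and 1.09 with a median of 0.76, and the 2 opposite-strand probes lay at -0.02 and -0.05. H3 and H4 had medians of 0.17 and 0.17, with 0 probes past the adjusted threshold. The probes called were HIST1H2AC, 1.25 ± 0.12 higher (SE, adjusted p = 0.00045), and HIST1H2BK, 1.09 ± 0.27 higher (SE, adjusted p = 0.027). Without any single array, and under each other setting that tested all 20, between 12 and 16 H2B probes were higher at the adjusted threshold.

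Most H2A and H2B genes are neighbours that start next to each other and run in opposite directions, so they share the stretch between their starts. RefSeq places 11 such pairs within 250 bases of each other, and 10 had tested probes on both sides. By the brightest mRNA-strand probe of each gene, all 10 H2B genes and 5 of 10 H2A genes lay above 0 in Lamin A/C Kd, with medians of 0.48 and 0.03. The H2B gene was above its H2A neighbour in 8 of 10 pairs, by a median difference of 0.42. The widest gap was between HIST1H2AI at -0.81 and HIST1H2BL at 0.58, followed by HIST1H2AJ at -0.33 and HIST1H2BM at 0.58. In the pairs of HIST1H2AC with HIST1H2BC and of HIST1H2AD with HIST1H2BF, both genes lay between 0.44 and 0.49. In Lamin B2 Kd both genes of every pair lay below 0, with medians of -0.34 for H2A and -0.24 for H2B. The median of all tested probes was itself -0.14. The side of 0 depends on the scaling, and with the 75th percentile 4 of the 20 tested H2B probes lay above 0. In Lamin B2 Kd too the H2B gene was above its H2A neighbour in 9 of 10 pairs, by a smaller median difference of 0.10. Since many of these probes are alike, the pairs are a description of probes and no test was made.

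**Figure D4:**
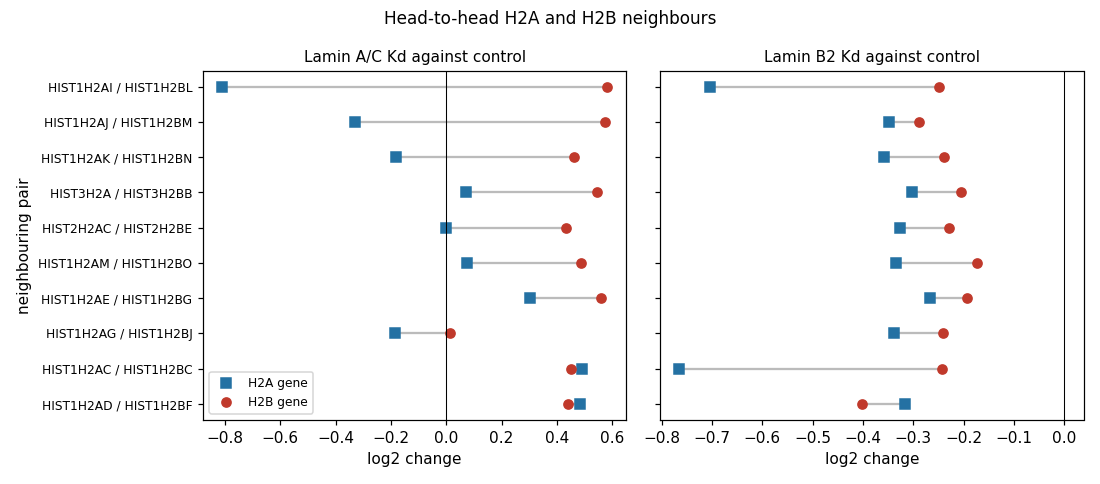
Log2 change (horizontal axis) of the H2A gene (squares) and the H2B gene (circles) in each of the 10 head-to-head neighbouring pairs (vertical axis), in Lamin A/C Kd (left) and Lamin B2 Kd (right). In Lamin A/C Kd the H2B gene lies to the right in 8 of 10 pairs, with HIST1H2AI and HIST1H2BL furthest apart. In Lamin B2 Kd all points lie below 0, where the median of all tested probes is -0.14. The H2B gene lies to the right in 9 of 10 pairs there.

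The 250 bases before the start of the gene were searched on both strands for ATTTGCAT, an octamer known from H2B promoters, TATAAA, the TATA box, and CCAAT, the CCAAT box. None of the 3 contains another. RefSeq promoters were found for 58 of the 68 genes. The octamer letters were present in 13 of 16 H2B promoters and 11 of 15 H2A promoters, and in 0 of 6 for H1, 9 for H3 and 12 for H4, against 1.63% of all 35116 promoters in the table. In the 11 head-to-head pairs the 2 promoters are largely the same stretch, read from either side. A motif there can be counted for both genes, so the H2A and H2B counts are not separate. TATAAA was present in 10 of 16 H2B, 11 of 15 H2A, 7 of 9 H3, 7 of 12 H4 and 3 of 6 H1 promoters, against 3763 of all 35116. CCAAT was present in every H1, H2A, H2B and H3 promoter searched and in 3 of 12 H4 promoters, against 11240 of all. The H2B promoters without the octamer letters were those of HIST1H2BL, HIST1H2BN and HIST3H2BB, whose mRNA-strand probes lay at 0.58, 0.46 and 0.54 in Lamin A/C Kd. HIST1H2BG and HIST1H2BM are shown because they rose and hold the octamer, and HIST1H4E because it is an H4 gene that holds none of the 3 motifs. Capitals mark the motifs on either strand, and sequences run 5′ to 3′ in the direction of the gene.
HIST1H2BG, GRCh38.p14 chr6:26216689-26216938, minus strand: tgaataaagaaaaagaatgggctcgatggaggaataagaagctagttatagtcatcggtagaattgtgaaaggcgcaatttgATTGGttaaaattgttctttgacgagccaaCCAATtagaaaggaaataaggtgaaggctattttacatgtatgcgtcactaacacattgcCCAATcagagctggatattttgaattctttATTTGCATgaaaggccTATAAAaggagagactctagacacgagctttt
HIST1H2BM, GRCh38.p14 chr6:27814772-27815021, plus strand: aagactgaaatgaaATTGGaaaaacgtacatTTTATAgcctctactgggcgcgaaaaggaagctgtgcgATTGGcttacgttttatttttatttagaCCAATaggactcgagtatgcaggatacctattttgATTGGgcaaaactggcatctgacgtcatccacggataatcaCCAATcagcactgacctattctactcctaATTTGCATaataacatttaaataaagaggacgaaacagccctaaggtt
HIST1H4E, GRCh38.p14 chr6:26204360-26204609, plus strand: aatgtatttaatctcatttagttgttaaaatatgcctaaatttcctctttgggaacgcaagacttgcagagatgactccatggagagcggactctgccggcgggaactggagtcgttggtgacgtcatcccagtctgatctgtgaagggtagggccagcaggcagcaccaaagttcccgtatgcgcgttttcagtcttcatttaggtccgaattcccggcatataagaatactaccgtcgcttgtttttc

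**Figure D5:**
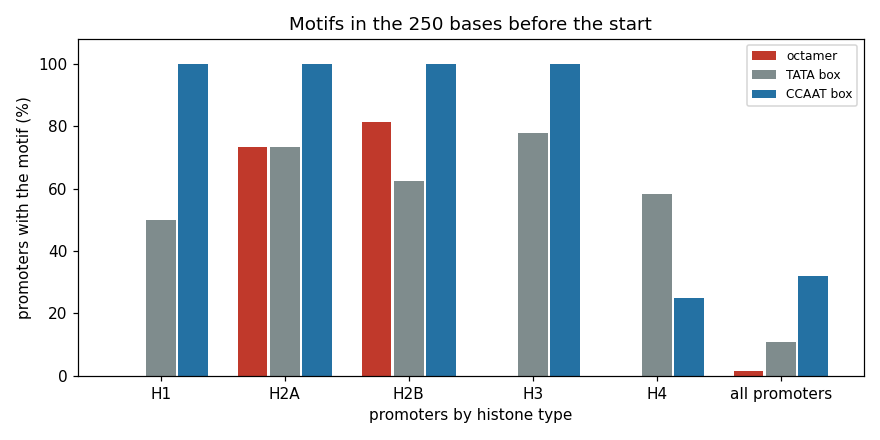
Share of promoters (vertical axis, percent) with the letters of the octamer, the TATA box or the CCAAT box on either strand of the 250 bases before the start. Promoters of each histone type and all promoters in the table are given (horizontal axis). The octamer bar reaches 81.3% for H2B and 73.3% for H2A, is 0 for H1, H3 and H4, and is 1.63% over all promoters. Head-to-head H2A and H2B genes share most of the stretch searched, so the bars of these types are not separate counts.

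Among the genes that make or handle histone mRNA none rose. Of 30 tested probes for histone transcription and 3′ end processing, 5 lay above 0 and 25 below in Lamin A/C Kd. Their median was -0.22, against -0.05 over all probes. At an adjusted p under 0.05, 0 rose and 2 fell, a share near that of all probes, of which 3% rose and 6.15% fell. SLBP, which binds the stem-loop, lay at -0.45 (adjusted p = 0.072), and CASP8AP2, a nuclear regulator of histone transcription, at -0.48 (adjusted p = 0.055). NPAT, the coactivator of histone genes, lay at 0.08 and 0.16 by its 2 probes, and LSM10 and LSM11 of the U7 particle at -0.22 and 0.19. In Lamin B2 Kd the list had a median of -0.20, against -0.14 over all probes. There 0 rose and 1 fell at an adjusted p under 0.05, where 0.465% and 3.65% of all probes did. In this knockdown SLBP lay at -0.19, CASP8AP2 at -0.07, LSM10 at -0.36, LSM11 at -0.07 and NPAT at 0.08 and 0.21.

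Genes of S phase and DNA replication lay mostly below 0. In Lamin A/C Kd, 2 of its 26 probes lay above 0 and 24 below, with a median of -0.45 against -0.05 over all probes. At an adjusted p under 0.05, 9 fell and 0 rose, where 6.15% and 3% of all probes did. Called lower were MCM6, a subunit of the replicative helicase, by 1.22 (adjusted p = 0.0014), and CDK2, an S phase kinase, by 1.44 (adjusted p = 0.0026). Over all probes, 1.42% were called lower. In Lamin B2 Kd the same list had a median of -0.22 against -0.14 over all probes. There 1 fell and 0 rose, where 3.65% and 0.465% of all probes did. The part of the cell cycle in the histone values was not tested.

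Histone variant genes that are not among the members were followed as a list of 26 tested probes. In Lamin A/C Kd 13 lay above and 13 below 0, with a median of -0.00. The linker variant H1F0 fell by 0.74 (adjusted p = 0.0078) and was the 1 probe of that list past the adjusted threshold. H1FX lay at -0.63 and H2AFX, the H2A variant of DNA damage, at -0.44. The replacement variants H2AFZ, H3F3A and H3F3B lay between -0.19 and 0.34 over their 11 probes, all with an adjusted p of at least 0.13. In Lamin B2 Kd the list had a median of -0.13 with 0 past the threshold, and H1F0, H1FX and H2AFX lay at 0.04, -0.59 and -0.58. The 25 histone chaperone probes had medians of -0.33 in Lamin A/C Kd, where 2 rose and 2 fell, and -0.34 in Lamin B2 Kd, where 0 rose and 3 fell. Over all probes, 3% rose and 6.15% fell in Lamin A/C Kd, with a median of -0.05. In Lamin B2 Kd 0.465% rose and 3.65% fell, with a median of -0.14.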

How the data were processed

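RNA from 9 DLD1 cultures was hybridised to single-color Agilent 60-base arrays after T7-promoter linear amplification, 1 array per culture. Per the file headers the deposited intensity is Feature Extraction's background-subtracted, detrended signal, unscaled between arrays. The submitters' processing notes name version 10.5, while the file headers name another version. The authors also deposited a log2 table, shifted by the 50th percentile and centred per row, of which 11432 rows with a single probe, 45 of them for histones, served as an alternative only. The set numbers of its Lamin B2 Kd columns do not go with the arrays of those titles, so these columns stood for the group only. Control and outlier spots were dropped, spots of a probe averaged, and log2 intensity minus the array median was fitted with limma 3.58.1 in R 4.3.3 on all 9 arrays, with Benjamini-Hochberg adjustment over all probes tested. A probe was tested if at least 0.5 of its spots were well above background on all 3 arrays of a compared group. The methods' criterion, a fold of 2 and an unadjusted p under 0.05, gave the calls. The number of arrays limits precision, and p-values measure the spread between these cultures.

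Genes named were every called probe, the 8 largest rises and falls per knockdown by each gene's brightest probe, the 3 brightest genes per type, and the polyadenylated and testis lists; HIST1H2BJ, the probes of each closely alike pair and those of the printed stem-loops were added for their sequences, and the other H2B rises and H2A genes after their values were seen. The members and lists were chosen with earlier results of these data known. Names were matched to RefSeq GRCh38.p14. Likeness needed an overlap of at least 15 bases; sequence work used Python 3.11.15. Alternatives were the call, scaling, background correction, detection filter, authors' table, fit, slide, replicate block and each array left out; a scaling by the median of the probes detected on all arrays was chosen after seeing the data. The fit was tested on simulated data.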

Additional observations from a re-analysis of the deposited data

Results flagged for a closer look

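Both knockdowns were compared with the same controls, and the direct test between them passed the call for 2 histone probes. The HIST1H2BK probe had a log2 signal 1.09 ± 0.27 (SE) higher in Lamin A/C Kd than in Lamin B2 Kd, with limma adjusted p = 0.027, and was higher on 3 of 3 arrays than on any Lamin B2 Kd array. The HIST1H2AC probe that fell in Lamin B2 Kd was 1.25 ± 0.12 (SE) higher, with limma adjusted p = 0.00045, again without overlap of the 3 arrays of each group, while the gene's second probe differed by 0.17 with an adjusted p of 0.63.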

How the results depend on the processing

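Of the main counts and medians, 146 values under the alternatives stayed near the main ones, 23 moved and 0 reversed. The histone probes called in Lamin A/C Kd, 1 at first, were 12 at an adjusted p under 0.05 at any fold, 5 at a fold of 1.5, 2 in the authors' table, 2 with no filter on detection, 0 with array weights, and 0 to 2 with an array left out (0 when Control replicate 2 or the third Lamin A/C Kd array was omitted). In Lamin B2 Kd the 0 calls became 2 at an adjusted p at any fold, 3 at a fold of 1.5 and 1 with no filter, and were 0 with each array left out. Between the knockdowns the 2 calls became 23 at an adjusted p at any fold, 22 at a fold of 1.5, 4 with no filter, 1 with the 75th percentile, 1 with the median of the probes detected on all 9 arrays, 0 with normexp, and 2 to 3 with an array left out. At a fold of 1.5 the calls over all 33131 probes in Lamin A/C Kd were 1144 higher and 2119 lower. They were 726 and 2258 of 33535 in Lamin B2 Kd, and 3156 and 1668 of 33134 between the knockdowns. With no filter they were 482 and 607, 1052 and 480, and 1017 and 1127 of 50238 probes in that order, with 96 histone probes tested. The authors' table gave 90 and 100 of 8104 in Lamin A/C Kd, where 40 histone probes were tested. The median of the histone probes in Lamin B2 Kd, -0.23, was -0.032 with the 75th percentile, -0.036 with quantile normalization, -0.069 with the median of detected probes, and -0.34 to -0.13 with an array left out. Over all probes it was 0.058, -0.0055 and 0.021 under these scalings, and -0.17 to -0.06 with an array left out. That of H2B, -0.25, was -0.050 with the 75th percentile and -0.043 with quantile normalization. The H2B probes risen in Lamin A/C Kd at an adjusted p under 0.05, 9 at first, were 16 with the 75th percentile, quantile normalization, array weights, the slide as a block or only the 2 groups, 14 with normexp, 5 of 10 in the authors' table and 1 with no filter. The cause of these shifts was not tested. Correlations of deviations gave no sign that replicate numbers pair the arrays, with 1 of 9 same-number values over 0.1 (-0.09 to 0.15) against 2 of 18 others. With 3 arrays per group they cannot exclude a pairing. With the replicate block the calls were 1, 0 and 2, and the histone probes past the adjusted threshold were 2, 0 and 22 in place of 12, 2 and 23, with 0 H2B probes risen in Lamin A/C Kd.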
